A study of Drosophila melanogaster with 2 samples.

Results

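The mitochondrial ribosomal protein genes of Drosophila melanogaster were taken as the 73 protein-coding genes, of 13968 in all, whose symbol in the Ensembl annotation begins with mRpL or mRpS. They comprise 47 mRpL genes of the large subunit and 26 mRpS genes of the small subunit, spread over the arms of chromosomes 2, 3 and X. Genes of the mitochondrial ribosome that carry other names, such as tko and bonsai, are not among them. Binding of the homeodomain factor Oc near these genes was measured by ChIP-seq in embryos collected at 2 to 14 hours. The flies carry a stable transgene in which GFP is joined to the C terminus of Oc, and chromatin was recovered with an antibody to GFP. The 2 libraries, biological replicates 2 and 3, come from the same fly line and form the only group, so there is no untagged or untreated group to set them against. Whole embryos were used, so the cell types in which a site was bound cannot be told apart. The deposited lists are 30000 peaks for each replicate, 30000 peaks for the pooled alignments, and a smaller set kept by the depositors for its agreement between replicates, on the irreproducible discovery rate (IDR). A summit is the highest point of a peak, and positions are given on dm6. With a single group no test between conditions was possible, and shares are given with 95% Wilson intervals that cover counting error alone.

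Mitochondrial ribosomes translate the few proteins that the mitochondrial genome encodes, which are core subunits of the respiratory chain and of ATP synthase. All of their protein components are encoded in the nucleus, made in the cytosol and imported into the organelle. The genes are expressed in nearly all cells, and such broadly expressed fly genes often lie head to head with a neighbour, so that a short stretch of DNA serves as the promoter of both. Oc itself is known as a regulator of head and photoreceptor genes, and its class of homeodomain prefers the site TAATCC.

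An IDR summit lay within 500 bp of a start at 12 of these genes (16.4%), close to the 14.7% of all protein-coding genes. Of the 12, 3 had one of the 20 strongest peaks, against 19 of the 2047 protein-coding genes with such a summit. This cut was not set in advance, and the difference was not tested. In 9 of 12 cases the summit lay between a mitochondrial ribosomal protein gene and a neighbour that starts within 500 bp of the summit and is read in the opposite direction. Windows of 101 bases centred on 6 of these summits are shown. Peak strength and the presence of a motif entered the choice, so the share of windows with a motif is not representative. The summit of mRpS6, at rank 2365, held no motif searched and is left out, while that of mRpS26, at rank 2380, is shown. All 6 windows lie between facing starts and span the range of base composition, from 16.8% GC at mRpL20 to 48.5% GC at mRpS26. Each runs 5' to 3' on the strand of the mitochondrial ribosomal protein gene and comes from the RefSeq copy of the dm6 genome. Capitals mark matches on either strand to the 13 motifs searched: TAAGCC in mRpS10, mRpS2 and mRpS26, TAATCC in mRpS23 and TAATTA, a site of other homeodomains, in mRpL24.
mRpS10 summit, chr3R:15229481-15229581, plus strand: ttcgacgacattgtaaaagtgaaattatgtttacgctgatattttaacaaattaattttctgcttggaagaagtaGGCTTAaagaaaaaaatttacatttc
mRpS23 summit, chr2L:13835399-13835499, minus strand: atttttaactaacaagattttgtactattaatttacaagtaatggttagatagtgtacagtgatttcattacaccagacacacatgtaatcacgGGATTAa
mRpL20 summit, chr3L:13018096-13018196, minus strand: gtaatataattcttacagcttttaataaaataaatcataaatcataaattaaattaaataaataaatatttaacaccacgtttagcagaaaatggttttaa
mRpL24 summit, chr2L:4945447-4945547, minus strand: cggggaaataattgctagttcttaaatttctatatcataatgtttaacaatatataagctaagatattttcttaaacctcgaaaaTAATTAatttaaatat
mRpS2 summit, chr2L:4850536-4850636, minus strand: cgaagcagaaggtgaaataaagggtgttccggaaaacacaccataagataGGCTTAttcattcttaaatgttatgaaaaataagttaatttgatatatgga
mRpS26 summit, chr3L:18106189-18106289, plus strand: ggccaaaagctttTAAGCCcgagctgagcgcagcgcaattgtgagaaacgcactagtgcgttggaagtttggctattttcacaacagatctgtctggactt
None of the 6 windows overlaps an annotated untranslated region. The window of mRpL20 holds an unbroken run of 30 A and T bases, and that of mRpL24 a run of 20.

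An IDR summit lay within 500 bp of an annotated start site for 12 of the 73 genes (16.4%, 9.66 to 26.6), against 14.7% of all protein-coding genes. The share of bound promoters was therefore close to that of the genome. In the pooled list, which reaches down to weak peaks, 23 genes had a summit within 500 bp (31.5%, 22.0 to 42.9), against 32.5% of all protein-coding genes. Replicate 2 had such a summit at 25 genes (34.2%, against 32.9% of all genes) and replicate 3 at 32 (43.8%, against 37.4%). Both replicates had one at 20 genes (27.4%, against 28.1%). The 73 genes thus divide into 12 with an IDR summit, 11 with a pooled summit below the IDR set, 15 with a summit in a replicate list but not in the pooled list, and 35 with none in any list. The 15 are 20.5% of the members (12.9 to 31.2), against 10% of all protein-coding genes, and the 35 are 47.9% (36.9 to 59.2), against 57.4%. For these 35, 23 of the large and 12 of the small subunit, the nearest pooled summit lay 583 to 42921 bp away, with a median of 7827 bp. The bound genes were 6 of 47 of the large subunit (12.8%, 5.98 to 25.2) and 6 of 26 of the small subunit (23.1%, 11.0 to 42.1), and these intervals overlap widely. At the edge of the 500 bp window, the farthest IDR summit inside it was 377 bp from the start of mRpS23, and the nearest outside it was 721 bp from that of mRpL2.

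**Figure D1:**
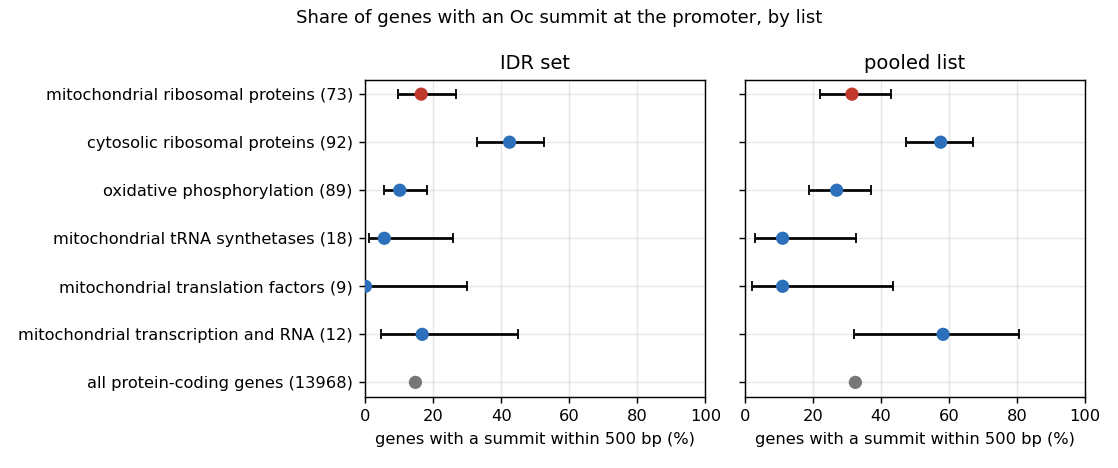
Percent of genes with a summit within 500 bp of a start site in the IDR set (left) and the pooled list (right), by gene list with the number of genes in brackets; points are shares and bars are 95% Wilson intervals. The mitochondrial ribosomal protein genes, at 16.4% and 31.5%, sit beside all protein-coding genes at 14.7% and 32.5%, while cytosolic ribosomal protein genes are at 42.4% and 57.6%.

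Signal, the depositors' value per peak, was high at 7 of the 12 bound promoters, from 544 to 2166. At the rest it ran from 177 to 244, no higher than the median of all bound genes. Over the 12 genes the signal ran from 177 to 2166 with a median of 626, against a median of 244 over the 2047 protein-coding genes with an IDR summit within 500 bp. Of the 12 genes, 7 (58.3%) had a summit in the highest quartile of IDR signal, above 312, against 32.6% of the 2047 genes. The same 7 were among the 500 strongest IDR peaks, against 14.9% of the 2047 genes. Counted over all members, 7 of 73 had a peak of the highest quartile at the promoter (9.59%, 4.72 to 18.5), against 4.78% of all protein-coding genes, a background share that lies just within the interval. Among genes with a start on the opposite strand within 500 bp, such a peak was at 6 of 53 members (11.3%), against 8.38% of all protein-coding genes of that kind. The count in the highest quartile was looked at after the values had been seen and was not tested. The cuts at the 500 and at the 20 strongest peaks were not set in advance either, and those counts were not tested.

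**Figure D2:**
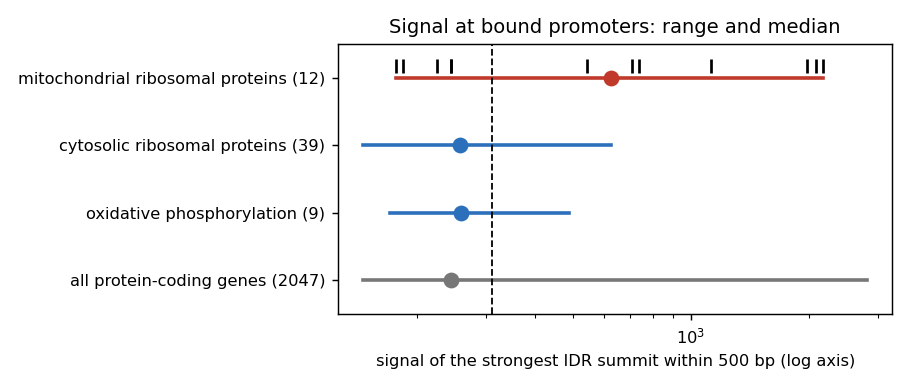
Signal of the strongest IDR summit within 500 bp of the start, on a log axis, for the bound genes of 4 lists (number in brackets); lines span the range, points are medians, ticks are the 12 mitochondrial ribosomal protein genes and the dashed line is the upper quartile of all IDR peaks, 312. The mitochondrial ribosomal protein genes have a median of 626 and reach 2166, while bound cytosolic ribosomal protein genes have a median of 258 and do not exceed 626.

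Among large subunit genes the strongest peak was at mRpL41 (FBgn0034001, start 2R 15217617, minus strand), which encodes a protein found in mitochondrial but not in bacterial ribosomes. Its summit at 15217756 had a signal of 2166 and ranked 8 in the IDR set. In replicate 2 the signal was 1177 at rank 7, and in replicate 3 it was 992 at rank 11. The summit lay 139 bp upstream of mRpL41 and 623 bp upstream of the divergent gene CG8079, so mRpL41 was the only start within 500 bp. mRpL41 was in that respect unlike the other strong members, whose peaks were shared with a neighbour.

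mRpL23 (FBgn0035335, 3L, minus strand) encodes the counterpart of bacterial L23, a protein at the exit of the peptide tunnel. Its summit at 2373620 had a signal of 1126 and ranked 73 in the IDR set, in replicate 2 (signal 599) and in replicate 3 (signal 530) alike. It was the only summit of the 12 downstream of the nearest start of the member, by 58 bp, in the 5' untranslated region of mRpL23 and 108 bp upstream of the divergent gene CG9004. mRpL20 (FBgn0036335) encodes the counterpart of bacterial L20, which acts early in assembly of the large subunit. The summit at 3L 13018146 had a signal of 736, with 409 in replicate 2 and 329 in replicate 3. It lay 279 bp upstream of mRpL20 and 120 bp upstream of Icmt, a prenylcysteine methyltransferase gene. mRpL24 (FBgn0031651), the counterpart of another early assembly protein, had a summit at 2L 4945497 with a signal of 707, and 371 and 330 in replicates 2 and 3. That summit was 136 bp from mRpL24 and 82 bp from betaggt-I, which encodes a subunit of a protein prenyltransferase. For these 3 genes the ranks in the separate replicates stayed between 73 and 268, so both libraries placed them high.

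The remaining large subunit peaks were weak. mRpL34 (FBgn0083983) had a summit at 2R 16098773 with a signal of 226, 175 bp upstream of its own start and 209 bp upstream of Dg, the dystroglycan gene. Its rank of 2721 in the IDR set was 2423 in replicate 2 and 4875 in replicate 3. mRpL4 (FBgn0001995), whose bacterial counterpart lines the peptide tunnel, had a summit at 2L 16329273 with a signal of 185, 141 bp upstream. This peak rested on replicate 2, where it ranked 6205 with a signal of 76.6, while the nearest summit of replicate 3 was 3472 bp away. mRpL4 and mRpL41 were the only bound members with no other protein-coding start within 500 bp of the summit.

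In the small subunit mRpS10 (FBgn0038307, start 3R 15229665, plus strand) led. It encodes the counterpart of bacterial S10, a protein of the head of the subunit. Its summit at 15229531 had a signal of 2084 and ranked 10, with 1086 at rank 9 in replicate 2 and 1012 at rank 8 in replicate 3. It stood between mRpS10, 134 bp away, and the arginine methyltransferase gene Art3, 123 bp away. mRpS23 (FBgn0260407, start 2L 13835072, minus strand) encodes a small subunit protein specific to mitochondria. Its summit at 13835449 had a signal of 1977 and ranked 12, with 982 at rank 16 in replicate 2 and 997 at rank 10 in replicate 3. The summit was 377 bp from mRpS23 and 115 bp from CenG1A, which encodes a GTPase-activating protein of Arf. Both peaks were thus in the 20 highest of each replicate, and both were nearer to the neighbour.

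mRpS2 (FBgn0031639), with a bacterial counterpart of the same name, had a summit at 2L 4850586 with a signal of 544, with 305 in replicate 2 and 237 in replicate 3. It lay 167 bp from mRpS2 and 55 bp from Mon1, which encodes part of an exchange factor for Rab7. mRpS6 (FBgn0035534) had a summit at 3L 4364428 with a signal of 244, 122 bp from its start and 326 bp from Cip4, an F-BAR protein gene. Replicate 2 had this peak at rank 1892 with a signal of 150. The nearest summit of replicate 3 was 110 bp away, just past the 100 bp used to match summits, at rank 3070 with a signal of 104. mRpS26 (FBgn0036774), another mitochondria-specific protein gene, also had a signal of 244, at 3L 18106239, 340 bp from its start and 90 bp from CG13698. mRpS18B (FBgn0032849) had the lowest signal of the 12, 177, at 2L 20097324, 71 bp from its start and 257 bp from Kua. The replicates placed this last peak apart, at rank 7011 with a signal of 70.9 in replicate 2 and rank 2861 with 107 in replicate 3. For the 7 strongest members each rank in a replicate was within 1.5 times the IDR rank, while mRpL34, mRpL4 and mRpS18B moved by more.

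**Figure D3:**
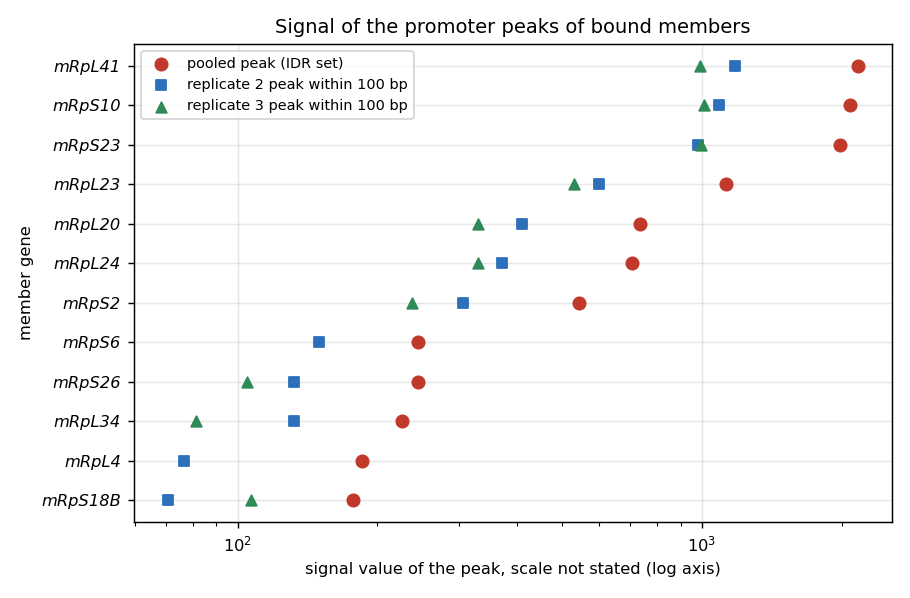
Signal per peak (log axis, scale not stated by the depositors) of the 12 bound members, strongest at the top, in the IDR set and in the replicate peaks within 100 bp. In each list mRpL41, mRpS10 and mRpS23 are the 3 highest genes and mRpS2 (544 in the IDR set) is the seventh, and mRpS6 and mRpL4 have no replicate 3 point.

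Close starts on the opposite strand were common in the family. Such a start is called divergent here, in whichever order the starts lie. A protein-coding start on either strand lay within 500 bp of 54 of the 73 genes (74%), against 30.8% of all protein-coding genes. For 53 of them that start was on the opposite strand (72.6%, 61.4 to 81.5), against 27.8% of all protein-coding genes, 39.1% of cytosolic ribosomal protein genes and 44.9% of oxidative phosphorylation genes. Of the 53, 10 had an IDR summit within 500 bp (18.9%, 10.6 to 31.4), against 21.7% of all protein-coding genes with a divergent start. Of the 20 members without one, 2 had an IDR summit (10%, 2.79 to 30.1), against 12.0% of all genes without one. Within either type of promoter the members were therefore near the genome-wide share. By the distance between a member's start and its divergent start, the bound members were 1 of 18 at up to 100 bp. They were 2 of 7 at 101 to 250 bp and 7 of 28 at 251 to 500 bp. For all protein-coding genes these shares were 18.2%, 20.7% and 24.0%. The 1 bound member with starts so close was mRpL23.

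All 12 summits had a start of another protein-coding gene on the opposite strand as the nearest other start, and in 10 that start lay within 500 bp of the summit. In 9 of these 10 the summit lay between the facing starts, upstream of both, and the exception was mRpL23. The summit was nearer to the member in 6 cases (mRpL41, mRpL23, mRpS6, mRpL34, mRpL4 and mRpS18B) and nearer to the neighbour in the other 6 (mRpS10, mRpS23, mRpL20, mRpL24, mRpS2 and mRpS26). Of the 7 strongest peaks, 5 were nearer to the neighbour. Which gene of such a pair a peak bears on cannot be told from peak positions.

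When an IDR summit counted only for the gene whose start was closest to it, 7 of the 73 genes received one (9.59%, 4.72 to 18.5), against 21.2% of all protein-coding genes. These were the 6 above and mRpL21, whose summit was 2966 bp away. The stretch of genome nearest to a gene's starts had a median of 1522 bp for the members and 4336 bp for all protein-coding genes, and its part in this lower share was not tested. Without replicate 3, in as many of the strongest peaks of replicate 2 as the IDR set holds, the count was 4. In the pooled list 14 members received a summit in this way (19.2%, 11.8 to 29.7), against 42.3% of all genes. Over all 73 genes the nearest IDR summit had a median distance of 6771 bp, against 8881 bp for the 13945 protein-coding genes on arms with peaks. For 29 members it was over 10000 bp away.

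**Figure D4:**
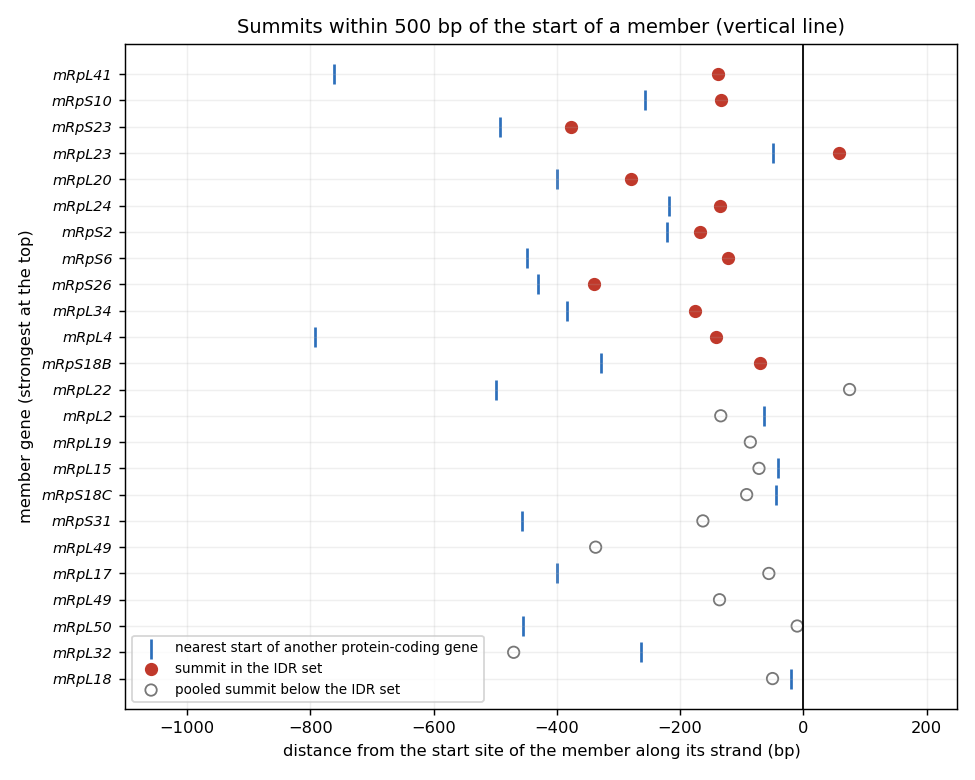
Distance of each summit from the member's start along its strand, upstream to the left, for the 12 IDR summits (filled) and 12 pooled summits below the IDR set (open), with the nearest start of another protein-coding gene as a bar where it lies within the plot. Most filled points lie left of the start and right of the neighbour's bar, and mRpL23 is the only filled point right of the start.

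The position of the summits was close to that over all bound genes. The nearest IDR summit was a median of 140 bp from the member's start (quartiles 131 and 201), against 131 bp for the 2047 bound protein-coding genes (quartiles 63 and 220). None of the 12 lay within 50 bp of the start, against 19.8% of the 2047 genes. Upstream of the start lay 11 of 12 (91.7%), against 78.3% of the 2047. Cytosolic ribosomal protein genes had their summits closer to the start, with a median distance of 26.0 bp and 32 of 39 bound genes within 50 bp. By annotation 11 member summits were intergenic and 1 was in a 5' untranslated region.

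The DNA at the summits was rich in A and T, mRpS26 apart. GC content within 50 bp of the summit had a median of 27.7% for the members, from 16.8% at mRpL20 to 48.5% at mRpS26, against 39.6% over the 1808 IDR summits within 500 bp of any protein-coding start. In windows centred 500 bp to either side the medians were 47.3% for the members and 43.6% for all 1808. GC content was below that of the flanks at 12 of 12 member summits, against 58.8% of all 1808. Strong promoter peaks shared the low value: over the 525 such summits in the highest quartile of signal the median was 29.7%, with 79.8% below their flanks. The longest unbroken run of A and T bases had a median of 15.0 for the members, from 6 to 30, against 9.0 for all 1808. Coding exons held 12 of the 24 flank centres of the members (50%), against 22.8% for all 1808, and the part of this in the contrast was not tested.

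**Figure D5:**
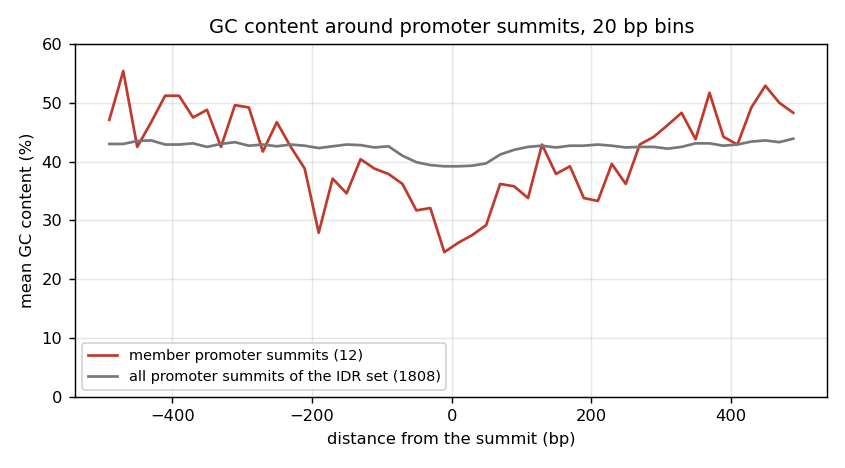
Mean GC content in bins of 20 bp against the distance from the summit, for the 12 member summits and the 1808 promoter summits of the IDR set. The member curve falls to 24.6% just left of the summit, where the curve of all promoter summits is at 39.2%.

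Sequence motifs were counted at the summits. The search covered both strands within 50 bp of each summit. TAATCC was found at 1 of 12 summits, that of mRpS23, and in 0 of the 24 flank windows. Over all 1808 promoter summits it was found at 5.42%, and in 3.87% of their flanks. TAAGCC was found at 3 member summits and 2 flanks, against 6.53% of all 1808 and 3.21% of their flanks. TAATTA was at 2 summits, mRpL24 and mRpS18B, against 7.91%, and TATAAA at 2, mRpL23 and mRpL4, against 17.4%. TATAAA, the letters of the TATA box, was counted at any distance from a start. No member summit held TATCGATA, the site of DREF (1.99% of all 1808), or GGTCACAC, known as Motif 1 (1.66%). Nor did any hold CTATCG (5.75%), the E-box CAGCTG (5.03%), GAGAGAG, the site of GAGA factor (4.26%), or CANCNCTA, where N is any base (4.81%). The E-box CACGTG, the site CCGGAAG and the site GCATGCGC were absent from the 12 as well. With 12 summits, counts of 0 cannot show a difference from shares of this size. The higher counts rest on few summits, and none was tested.

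Motifs were also counted in the core promoters of all 73 members, of which 61 had no IDR summit within 500 bp. The window used was longer than that at the summits. In the window from 250 bp before to 50 bp after the start, CAGCTG was present at 40 of 73 members (54.8%), against 17.7% of all protein-coding genes. Its 45 sites had a median position of 4.5 bp after the start, with quartiles at -31.5 and 18.5 bp. TATCGATA was present at 15 members (20.5%, against 9.36%), with a median position of -6 bp, and CTATCG, which overlaps it at the same promoter in some cases, at 27 (37.0%, against 19.5%). GGTCACAC was at 8 (11.0%, against 7.70%), CANCNCTA at 16 (21.9%, against 15.6%), CACGTG at 5 (6.85%, against 4.23%) and TAAGCC at 10 (13.7%, against 11.2%). TAATCC was at 5 (6.85%, against 8.76%), TAATTA at 15 (20.5%, against 20.5%), TATAAA at 34 (46.6%, against 45.9%), GAGAGAG at 1 (1.37%, against 5.86%), GCATGCGC at 1 (1.37%, against 1.05%) and CCGGAAG at 0, against 1.10%. The 56 TATAAA sites had a median position of -129 bp. By binding, CAGCTG was present in 6 of 12 bound promoters and 34 of the other 61. TATCGATA was present in 4 of the 12 and 11 of the 61, although at no summit, and TAAGCC in 4 of the 12 and 6 of the 61. These differences were not tested, and the shares were not set against genes with a divergent start alone. A match to these letters is a description of the sequence and not a bound site.

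Peaks below the IDR set lay at 11 further members. The 5 strongest were at mRpL22 (signal 116, 75 bp downstream of the start, X 16784008), mRpL2 (106, 134 bp upstream), mRpL19 (100, 86 bp upstream), mRpL15 (93.8, 72 bp upstream) and mRpS18C (85.3, 92 bp upstream). Their pooled ranks ran from 8142 to 12139, against 4236 for the weakest IDR peak of a member. Over all 11 members the deposited -log10 q-values ran from 2.62 at mRpL22 down to 0.51 at mRpL18. They were 1.15 or lower at mRpS31, mRpL49, mRpL17, mRpL50, mRpL32 and mRpL18, so those peaks have weak support. Both replicates had a summit within 100 bp for mRpL22, mRpL2 and mRpL15, while for mRpL19 and mRpS18C only replicate 3 had one. For mRpL19 the nearest summit of replicate 2 was just past that limit, 129 bp away, at rank 9033 with a signal of 59.7. For mRpS18C it was 3761 bp away. The summits of mRpL2, mRpL15 and mRpS18C lay in the 5' untranslated regions of the divergent genes FoxK, CtIP and CG15535, and that of mRpL22 in its own. By arm, IDR peaks were at 5 of 12 members on 2L (41.7%, 19.3 to 68.0, against 14.4% of its protein-coding genes), 4 of 17 on 3L (23.5%, against 16.2%), 2 of 12 on 2R (16.7%, against 15.1%), 1 of 21 on 3R (4.76%, against 15.6%) and 0 of 11 on X (upper bound 25.9%, against 11.7%). These 5 shares rest on few genes and were not tested.

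Related gene lists were read in the same way. Of 92 cytosolic ribosomal protein genes 39 had an IDR summit within 500 bp (42.4%, 32.8 to 52.6), an interval that does not reach that of the mitochondrial ribosomal protein genes (9.66 to 26.6). The strongest were RpL7 (signal 626), RpL14 (565) and RpS27 (541). Of 89 oxidative phosphorylation genes 9 had one (10.1%, 5.41 to 18.1), led by the complex I genes ND-ASHI (488), ND-51 (334) and ND-MWFE (309). The mitochondrial tRNA synthetases and amidotransferase subunits, which charge the tRNAs that the mitochondrial ribosome uses, had 1 of 18, ArgRS-m (signal 181). The mitochondrial translation factors had 0 of 9, which allows a share of up to 29.9%, and the only pooled summit in that list was at mIF2. Genes of mitochondrial transcription and RNA had 2 of 12: PNPase, which encodes polynucleotide phosphorylase, at a signal of 2032 and rank 11, and SLIRP1, a gene for an RNA-binding protein, at 307. In the pooled list 7 of these 12 had a summit within 500 bp (58.3%, 32.0 to 80.7), against 53 of the 92 cytosolic ribosomal protein genes (57.6%). Among the genes with an IDR summit, members and PNPase were the only ones of these lists in the 20 strongest peaks.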

How the data were processed

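ChIP-seq peaks from 2 libraries of 1 group were analysed as deposited. Per the README files deposited with the samples, peaks were called on dm6 alignments with a shared control alignment, for each replicate and for both together, and the IDR list was derived from those 3 lists. The peak caller, IDR threshold and read depth are not given in the sources used here. The deposited signal value is on a scale that was not stated and ranks peaks within a list. The deposited -log10 q-values, 3.92 at 11 of the member peaks of the IDR set and 3.45 at mRpS18B, were not used to choose or rank peaks. The deposited summit offset gave other positions. The age field reads 45336 hours, so the age of the source name was used. The IDR set was found to be the strongest part of the pooled list.

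Genes came from Ensembl 115 (BDGP 6.54) and bases from the RefSeq genome (release 6), handled in Python 3.11.15 (pandas 2.3.3, numpy 2.4.6). Intervals came from scipy 1.17.1 and plots from matplotlib 3.10.9. Distances ran to the nearest of all transcript starts of a gene, and replicate summits matched within 100 bp. Of the listed symbols, mEFG2 and mtIF3 matched no gene. The distance steps were tested on simulated data. The genes named are all 12 members with an IDR summit within 500 bp, the 5 members with the strongest pooled summits below it, and at most 3 genes from any comparison list. Members and lists were chosen with earlier results of these data known. Alternatives changed the distance, start sites, peaks, replicates, neighbours and motif window.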

Additional observations from a re-analysis of the deposited data

How the results depend on the processing

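The 12 members with an IDR summit within 500 bp (14.7% of all genes) became 9 at 250 bp (11.8%), 13 at 1000 bp (17.9%) and 10 in the IDR peaks above the median signal of 217 (8.53%). In equally many of the strongest peaks of a single replicate they were 10 in replicate 2 (14.2%) and 15 in replicate 3 (16.0%). The count was 6 when the summit had to be nearest to the member itself (11.9% of all genes), 2 of 19 members with no other protein-coding start within 500 bp (11.5% of such genes), and 7 in the highest quartile of signal, an alternative added after the data were seen. The 23 members with a pooled summit (32.5% of all genes) ranged from 19 at 250 bp (26.9%) to 32 in replicate 3 (37.4%). The 7 members with a nearest IDR summit (21.2% of all genes) were 4 in the IDR peaks above the median signal (13.7%), 4 without replicate 3 (21.1%) and 9 without replicate 2 (21.8%). The median distance of 140 bp was 147 to 162 bp with a single replicate. A TATCGATA, TAATCC or GGTCACAC site was at 1 member summit within 50 bp, 0 within 25 bp and 3 within 100 bp, against 8.79%, 4.31% and 17.0% of all promoter summits. The cause of these moves was not tested. No paired analysis was possible because the libraries form a single group. Depth per library is unknown, so a promoter without a peak may lie below the detection limit. The pooled list and each replicate list hold exactly 30000 peaks, so a weaker peak may also be absent from them.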

Other observations

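Replicate lists held summits at 15 members (20.5%, against 10% of all protein-coding genes) that had no pooled summit within 500 bp of the start, although the pooled list was called on the same reads. Each of these lists holds 30000 peaks, and the part of this in the difference was not tested. Replicate 3 alone had them at 11 members and replicate 2 alone at 3 (mRpL21, mRpL33 and mRpS5). mRpS22 had a summit in both replicates, at rank 6457 in replicate 2 and rank 6632 in replicate 3, while the nearest pooled summit was 5915 bp away. In replicate 3 the summits at mRpS7 (rank 3473), mRpS16 (rank 3504), mRpL54 (rank 3959) and mRpL53 (rank 4391) were among its strongest peaks, taken in the number of the IDR set. Of those strongest peaks, 188 (3.22%) had no pooled summit within 500 bp, against 72 (1.23%) of equally many of replicate 2. Over all 30000 peaks the share was 14.7% in replicate 3 and 12.6% in replicate 2. These genes were chosen after their values were seen.

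mRpS5 lies at 3L 24537236, where the nearest IDR summit was 1658336 bp away and the nearest pooled summit 1588883 bp away. Replicate 2 nevertheless had a summit 2 bp from its start, at rank 19180 with a signal of 32.7.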
